A study of Mus musculus with 6 samples.

Results

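The 8 genes described here are Mycn, Phox2a, Hand2, Gata2, Gata3, Alk, Ret and Dbh, which mark sympathetic neurons and the neuroblastoma tumours that arise from that lineage. They were chosen by symbol from the 23038 genes listed for each library. Messenger RNA was sequenced from NSC-34, a mouse motor neuron-like line that was made by fusing neuroblastoma cells with embryonic spinal cord cells and is grown in serum. Cultures received control siRNA (siNC, 3 libraries) or siRNA against the Qk transcript (siQk, 3 libraries). Qk is the gene of the Quaking RNA-binding proteins, and the comparison asks whether transcript levels move when Quaking is depleted. The labels call the libraries biological replicates and say that 3 different siRNAs targeted Qk, but do not give the siRNA of each library. Since all libraries come from a single hybrid line, the levels describe that line and not sympathetic neurons, motor neurons or tumours in general.

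Sympathetic neurons and adrenal chromaffin cells derive from the neural crest and make noradrenaline. Their identity is held by a circuit of transcription factors that bind one another's genes, in which the homeodomain protein PHOX2A acts with the bHLH factor HAND2 and the zinc finger factors GATA2 and GATA3. The circuit switches on enzymes of catecholamine synthesis such as DBH, which converts dopamine to noradrenaline. Neuroblastoma keeps much of this programme. Amplified MYCN marks tumours of high risk, activating mutations of the receptor tyrosine kinase ALK occur in familial and sporadic cases, and RET is the signalling receptor for ligands of the GDNF family. NSC-34 cells have a neuroblastoma parent, so their RNA can be read for these genes.

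The promoters of the enzyme gene and of 2 circuit factors are shown because homeodomain proteins such as PHOX2A bind the core ATTA and GATA factors bind GATA motifs. Each window runs from 250 bases before to 50 bases after the RefSeq start site on GRCm38.p6, 5′ to 3′ on the gene's strand, and capitals mark ATTA or GATAA on either strand. The windows are chr2:27165257-27165556 (plus strand) for Dbh, chr8:57320733-57321032 (plus strand) for Hand2 and chr7:101818063-101818362 (plus strand) for Phox2a.
Dbh: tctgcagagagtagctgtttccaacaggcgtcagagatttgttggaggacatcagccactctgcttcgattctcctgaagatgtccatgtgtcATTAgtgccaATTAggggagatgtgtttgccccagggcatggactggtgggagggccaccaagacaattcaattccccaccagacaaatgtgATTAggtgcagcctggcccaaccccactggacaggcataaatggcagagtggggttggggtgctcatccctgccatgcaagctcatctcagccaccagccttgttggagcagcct
Hand2: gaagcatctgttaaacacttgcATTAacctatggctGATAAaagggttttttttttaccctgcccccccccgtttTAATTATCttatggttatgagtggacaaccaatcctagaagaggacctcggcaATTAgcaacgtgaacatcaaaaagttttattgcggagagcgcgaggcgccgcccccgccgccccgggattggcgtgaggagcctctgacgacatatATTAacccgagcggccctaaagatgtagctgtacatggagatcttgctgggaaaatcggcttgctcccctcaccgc
Phox2a: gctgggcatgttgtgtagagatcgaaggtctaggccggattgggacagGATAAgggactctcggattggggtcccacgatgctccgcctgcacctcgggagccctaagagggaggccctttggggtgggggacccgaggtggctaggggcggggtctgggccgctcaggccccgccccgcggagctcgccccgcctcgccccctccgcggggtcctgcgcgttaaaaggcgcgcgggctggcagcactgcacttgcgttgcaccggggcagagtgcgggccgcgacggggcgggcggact
Dbh held 3 ATTA, at -157, -147 and -65 counted to the first base from the start site. Hand2 held 5 ATTA and 2 GATAA, and its ATTA at -173 overlaps an ATTA on the opposite strand at -175 and a GATAA on the opposite strand at -172. Phox2a held 1 GATAA at -202 and no ATTA. Of 32851 RefSeq promoter windows of the same length, 58.0% held at least 1 ATTA, 20% held 3 or more, 6.86% held 5 or more and 25.4% held a GATAA. Mycn held 2 ATTA, overlapping by 1 base, and no GATAA, and the windows of Gata2, Gata3 and Alk held neither. The E-box CACGTG, which MYC proteins bind, was in none of the 7 genes with a window (7.15% of all windows), and CATCTG, a form of E-box that HAND2 can bind, was in Hand2 and Mycn (17.2% of all windows). These letters are descriptions of the windows and not evidence of binding in NSC-34 cells.

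Quaking proteins recognise ACUAAC and ACUAAU, so the DNA forms ACTAAC and ACTAAT were looked for in the longest protein-coding GENCODE transcript of each gene. ACTAAT occurred 1 time each in Mycn, Phox2a, Alk and Ret, and neither form occurred in Hand2, Gata2, Gata3 or Dbh. The sites are given with the motif in capitals, because the siRNA targeted the gene of the Quaking proteins.
Mycn: gttatgtactgtACTAATtcctacacggcc
Phox2a: ctggtctggagtACTAATcaccgtgccgcc
Alk: cagggcaaaccaACTAATccagaaagtctg
Ret: aattaacacttgACTAATaaccattgtctg
The Mycn site (chr12:12936426-12936455, minus strand), the Phox2a site (chr7:101822322-101822351, plus strand) and the Ret site (chr6:118152013-118152042, minus strand) lie in the 3′ untranslated region. The Alk site is coding, and the stretch printed around it spans an exon junction on chromosome 17. The positions given are those of the printed stretches (all on GRCm38). Among 11013 transcripts of genes tested, 45.1% held either form at least 1 time, so a site in 4 of 8 genes is close to that share. By gene, the share among transcripts of like length ran from 22.4% for Phox2a to 63.8% for Alk and Ret.

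Library totals ran from 43000503 to 53565950 counts, and 12665 genes were tested. The siRNA target came first as a check of the labels. In siNC libraries Qk averaged 10.9 ± 3.54 RPKM, and in siQk libraries 1.40 ± 0.304 RPKM (SD, 3 libraries each). RPKM is the count divided by the length of the gene's exons and by the sum of counts, so it can be compared between genes. The Qk groups did not overlap, the log2 fold change was -2.997 (SE 0.34) and the adjusted p was 0.0149 by the edgeR quasi-likelihood test with Benjamini-Hochberg adjustment. siNC replicate 3 and siQk replicate 2 stood apart from the rest. They were farthest from the median of the 6 libraries for 29.3% and 32.6% of the genes tested, against 3.96% to 16% for the other libraries.

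All 8 genes were expressed in every library and all 8 were tested. Their levels spanned a wide range, from 2.68 RPKM for Alk to 176 RPKM for Ret as means over the 6 libraries. Ret, Hand2 and Phox2a ranked 363, 400 and 594 among the 23038 genes listed, Dbh 2077 and Gata2 3672, and Gata3, Mycn and Alk 7727, 7801 and 10179. None of the 8 was called changed after Qk knockdown. In the whole comparison 1 gene, Qk, was called at p under 0.01 and adjusted p under 0.1 (0.0079% of genes tested). That count was 5 under the edgeR exact test, 19 under DESeq2 and 0 without siNC replicate 1, where the adjusted p of Qk was 0.125 by the edgeR quasi-likelihood test, and none of these calls was among the 8. At an unadjusted p under 0.05 there were 0 of the 8, against 2.89% of genes tested (1.2% higher and 1.69% lower in siQk). The siNC and siQk ranges overlapped for all 8, while 8.84% of genes tested had groups that did not overlap (5.35% with siQk higher and 3.49% with siQk lower). In RNA from a whole culture, fewer cells of a type and less RNA per cell cannot be told apart, and that holds for every level below.

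**Figure D1:**
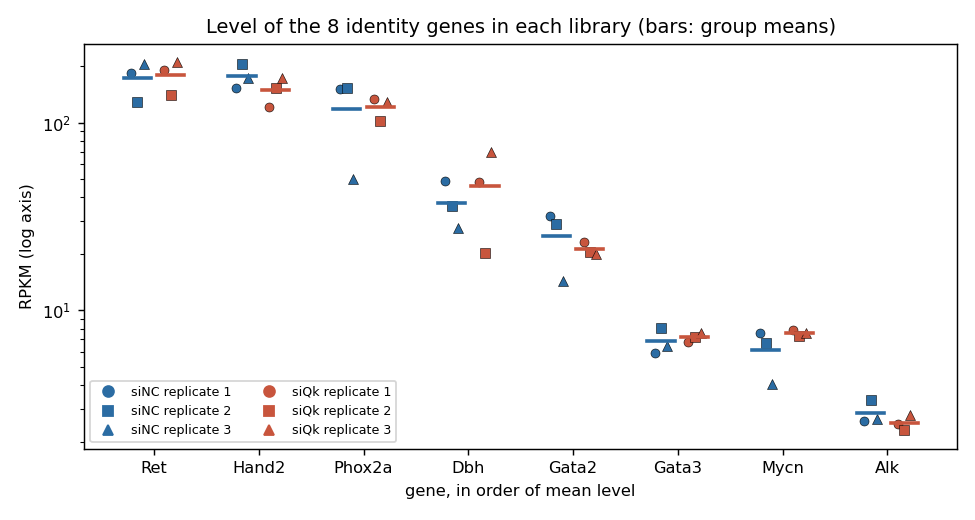
RPKM of the 8 genes in each of the 6 libraries on a log axis, ordered by mean level, with siNC in blue, siQk in red and a bar at each group mean. Ret, Hand2 and Phox2a sit near 100 RPKM or above except for Phox2a in siNC replicate 3 at 50.2 RPKM, and the groups overlap for every gene.

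Phox2a encodes a paired-type homeodomain factor that switches on noradrenergic enzyme genes (Entrez 11859, chr7:101818313-101822726, plus strand on GRCm38). It was at 150, 153 and 50.2 RPKM in siNC replicates 1 to 3, and at 134, 102 and 128 RPKM in siQk replicates 1 to 3. The 3 siQk libraries lay between the siNC values, and siNC replicate 3 was far below the rest, at 0.396 of the median of the other 5 libraries on the CPM scale. The means were 118 ± 58.6 RPKM for siNC and 121 ± 16.7 RPKM for siQk (SD, n = 3 each). The log2 fold change was 0.033 (SE 0.52), and the two-sided exact permutation p was 1.0 where 3 against 3 cannot go below 0.1. Without siNC replicate 3 the log2 fold change was -0.32, at an adjusted p of 0.895 by the edgeR quasi-likelihood test. Its spread within groups was larger than that of 94.1% of genes tested. Phox2a shares 95 of 2035 exon bases with Inppl1 on the opposite strand.

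Hand2 encodes the bHLH factor that keeps sympathetic neurons noradrenergic (Entrez 15111, chr8:57320983-57324633, plus strand). Its levels were 152, 205 and 172 RPKM in siNC and 121, 152 and 173 RPKM in siQk. siQk replicate 1 was the lowest library and siNC replicate 2 the highest, and the other 4 lay between 152 and 173 RPKM. The means were 176 ± 26.9 and 149 ± 26.0 RPKM (SD, n = 3 each), with a log2 fold change of -0.27 (SE 0.19, exact permutation p = 0.5). Hand2 shares 461 of its 2351 annotated exon bases with the antisense gene Hand2os1. The library kit as named keeps no strand, so reads from those bases cannot be assigned to either gene.

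The GATA factors of the circuit differed in level. GATA2 and GATA3 are zinc finger factors that bind GATA motifs, both needed for sympathetic development. Gata2 (Entrez 14461, chr6:88193891-88207032, plus strand) was at 31.9, 28.9 and 14.3 RPKM in siNC and 23.1, 20.5 and 20.03 RPKM in siQk. All 3 siQk libraries lay between siNC replicate 3, the lowest, and siNC replicates 1 and 2, the highest. The log2 fold change was -0.25 (SE 0.35, exact permutation p = 0.6). Without siNC replicate 3 it was -0.52, with an unadjusted p of 0.00937 and an adjusted p of 0.895 by the edgeR quasi-likelihood test, so the call did not change.

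Gata3 (Entrez 14462, chr2:9857078-9890034, minus strand) was at 5.94, 8.06 and 6.48 RPKM in siNC and 6.80, 7.18 and 7.62 RPKM in siQk. The siQk values fell inside the siNC range, and the lowest and highest libraries differed 1.36-fold, the smallest ratio among the 8 genes. The log2 fold change was 0.054 (SE 0.13, exact permutation p = 0.7). Gata2 made up 68.8% to 84.3% of the summed Gata2 and Gata3 RPKM. That share was 77.1% ± 7.80 in siNC and 74.6% ± 2.46 in siQk (SD, n = 3 each), a difference of -2.50 points (exact permutation p = 0.6). Exons of Gata3 overlap those of 9230102O04Rik on the same strand over 77 of 3978 bases and those of Gm13256 on the opposite strand over 155 bases.

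Mycn, which encodes the MYC-family bHLH factor amplified in aggressive neuroblastoma, lies on the minus strand at chr12:12936093-12941914 (Entrez 18109). It was at 7.58, 6.72 and 4.08 RPKM in siNC and 7.88, 7.29 and 7.58 RPKM in siQk. All libraries but siNC replicate 3 lay between 6.72 and 7.88 RPKM, and that library stood alone below them. The means were 6.12 ± 1.82 and 7.58 ± 0.296 RPKM (SD, n = 3 each), with a log2 fold change of 0.29 (SE 0.25, exact permutation p = 0.2). Without siNC replicate 3 the log2 fold change was 0.085. These values rest on 478 to 1064 counts per library.

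The receptors stood at opposite ends of the order. Ret (Entrez 19713, chr6:118151745-118197718, minus strand) was the most abundant of the 8 genes, with 44939 to 70749 counts per library. Its levels were 183, 129 and 205 RPKM in siNC and 190, 140 and 209 RPKM in siQk. In each group replicate 2 was the lowest, and replicate numbers are not known to pair the cultures. The log2 fold change was 0.027 (SE 0.29, exact permutation p = 0.7). It was -0.17 without siNC replicate 2, -0.11 without siQk replicate 3 and 0.20 without siNC replicate 3.

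Alk (Entrez 11682, chr17:71868972-72604627, minus strand) was the least abundant, at 2.58, 3.34 and 2.64 RPKM in siNC and 2.49, 2.30 and 2.77 RPKM in siQk. siNC replicate 2 was the highest library, and the other 5 lay between 2.30 and 2.77 RPKM. The means were 2.85 ± 0.422 and 2.52 ± 0.237 RPKM (SD, n = 3 each). The log2 fold change was -0.20 (SE 0.13, exact permutation p = 0.4).

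Dbh, the noradrenaline-making enzyme of the set, varied most between libraries among the 8 genes (Entrez 13166, chr2:27165233-27183200, plus strand). Its levels were 48.8, 36.0 and 27.6 RPKM in siNC and 48.2, 20.2 and 69.8 RPKM in siQk. Both the lowest and the highest library were siQk, replicates 2 and 3, and they differed 3.45-fold. The means were 37.5 ± 10.7 and 46.1 ± 24.8 RPKM (SD, n = 3 each), with a log2 fold change of 0.28 (SE 0.58, exact permutation p = 0.7). The direction rested on siQk replicate 3, since without it the log2 fold change was -0.16, and without siQk replicate 2 it was 0.64. The spread within groups was larger than that of 95.9% of genes tested. Dbh had whole-number counts in 2 of 6 libraries, and the other 7 genes had them in at least 5.

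**Figure D2:**
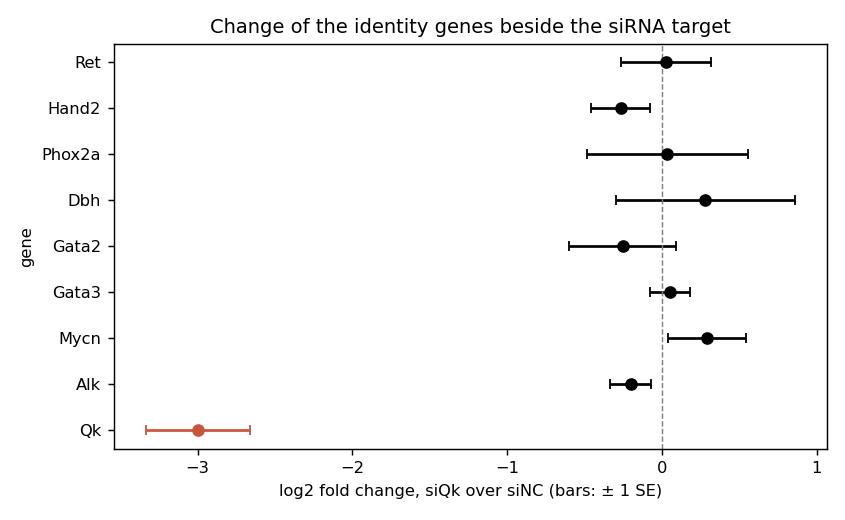
Log2 fold change of siQk over siNC for the 8 genes and for Qk, with bars of 1 SE on each side. The 8 genes lie between -0.27 (Hand2) and 0.29 (Mycn), while Qk, the siRNA target, lies at -2.997.

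Taking the 8 genes as a list, 5 had a positive and 3 a negative log2 fold change, with a median of 0.030 against 0.0034 over all genes tested. Leaving out each library in turn moved the median of the 8 from -0.13 to 0.099. The adjusted p was 0.9996 for each of the 8 by the edgeR quasi-likelihood test. siNC replicate 3 was the lowest library for Mycn, Phox2a and Gata2, and it was the lowest for 25.3% of all genes tested. siQk replicate 2 was the lowest for Dbh and Alk, and it was the lowest for 24.1% of all genes tested. In siQk replicate 3 Dbh was 1.97 times the median of the other libraries on the CPM scale, a departure above that of 99.8% of genes tested in that library. With both siNC replicate 3 and siQk replicate 2 left out, the log2 fold changes were -0.21 for Phox2a, 0.12 for Mycn, -0.49 for Gata2 and 0.48 for Dbh, and 0 of the 8 were called.

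**Figure D3:**
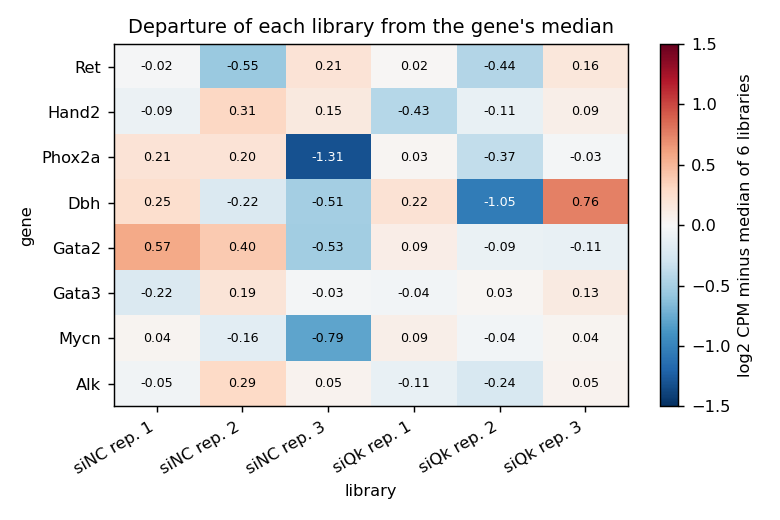
Log2 CPM of each library minus the gene's median over the 6 libraries, for the 8 genes, with blue below and red above the median. The darkest cells are Phox2a in siNC replicate 3 (-1.31) and Dbh in siQk replicate 2 (-1.05), and for no gene do the libraries of a group all lie beyond those of the other group.

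The order of levels was Ret, Hand2, Phox2a, Dbh, Gata2, Gata3, Mycn and Alk by mean RPKM. Since the same 6 libraries set this order, the steps between neighbours are described with no test. Phox2a was above Dbh by a mean of 1.54 (SD 0.61 over 6 libraries) on the log2(RPKM + 0.01) scale, Gata2 above Gata3 by 1.68 (SD 0.44) and Mycn above Alk by 1.33 (SD 0.42), in 6 of 6 libraries each. The RPKM ranges of Gata2 and Gata3, and of Mycn and Alk, did not overlap. Dbh was above Gata2 in 5 of 6 libraries, by a mean of 0.79 (SD 0.64). The other 3 steps were smaller than the SD of the difference over the libraries. Hand2 was above Phox2a in 5 of 6 libraries (mean 0.51, SD 0.68), Ret above Hand2 in 4 of 6 (0.11, SD 0.45) and Gata3 above Mycn in 3 of 6 (0.059, SD 0.36).

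Several of the 8 genes have a close relative that was as abundant or more abundant in this line. Myc, the relative of Mycn that drives growth in most tissues, was at 99.7, 79.2 and 101 RPKM in siNC and 79.8, 60.4 and 70.4 RPKM in siQk. Its log2 fold change was -0.44 (SE 0.18), with an unadjusted p of 0.0333 and an adjusted p of 0.9996 by the edgeR quasi-likelihood test, and it was not called. Mycl1, the third family gene, had a mean of 0.823 RPKM. Mycn made up 6.98%, 7.80% and 3.84% of the summed MYC family RPKM in siNC and 8.88%, 10.7% and 9.64% in siQk. The Mycn shares did not overlap between groups, as the RPKM of 8.84% of all genes tested did not. It was 1 of 5 such shares computed, with an exact permutation p of 0.1, the smallest possible, against 0.6 to 1.0 for the other 4. The p-values were not adjusted over the 5 shares, and the Mycn share was looked at after the values of its genes were seen.

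Hand1, the paralogue used mainly in heart and placenta, was at 0.0787 to 0.381 RPKM, so that Hand2 made up at least 99.69% of the pair. Gata4, better known from heart and gut, was at 17.4 to 24.2 RPKM, above the range of Gata3, while Gata1 and Gata5 had means of 0.0353 and 0.0101 RPKM and Gata6 had 0 counts in all 6 libraries. Ltk, the receptor closest to Alk, was at 8.501 to 17.8 RPKM, and Alk made up 12.7% to 23.7% of the pair.

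**Figure D4:**
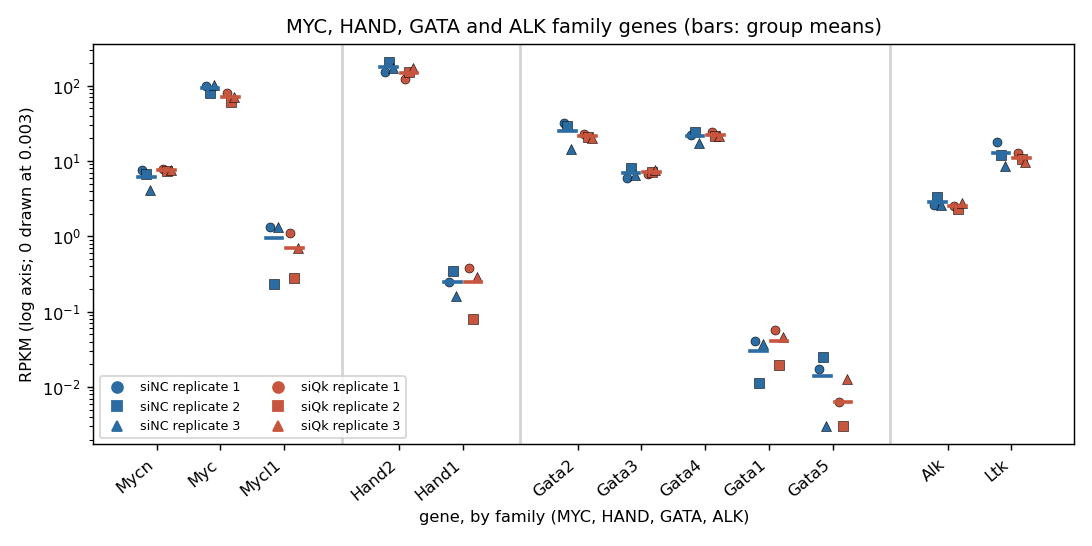
RPKM of Mycn, Hand2, Gata2, Gata3 and Alk beside their closest relatives in each library, on a log axis with 0 drawn at 0.003 and bars at group means. Myc (mean 81.7 RPKM) and Ltk (mean 11.9 RPKM) lie above Mycn and Alk, Gata4 lies beside Gata2, and Hand1, Gata1 and Gata5 lie below 1 RPKM.

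The surrounding pathways were described with 14 lists of genes. In their union of 242 genes, 165 were tested, 0 were called and 9 (5.45%) had an unadjusted p under 0.05, of which 4 were higher and 5 lower in siQk. Over all genes tested, 0.0079% were called and 2.89% had an unadjusted p under 0.05. That count of 0 calls is from the edgeR quasi-likelihood test, and DESeq2 called 1 list gene, Isl1. The lowest adjusted p among the list genes was 0.9996 in the quasi-likelihood test. When each library was left out in turn, the median log2 fold change changed sign for 10 of the 14 lists and kept it for 4, so the medians below describe these 6 libraries. Of the 23038 genes listed in the files, 11789 had a mean of at least 1 RPKM.

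Regulators of the noradrenergic state came first. Of 25 listed, 18 had a mean of at least 1 RPKM, 19 were tested and 0 were called, with a median log2 fold change of 0.14. Lmo1, a LIM-only cofactor tied to neuroblastoma risk, led at 43.3 to 77.9 RPKM, and Lmo4, a related cofactor, had a mean of 40.1 RPKM. Isl1, a LIM homeodomain factor of sympathetic and motor neurons, was at 4.83, 4.75 and 4.79 RPKM in siNC and 9.62, 7.80 and 8.33 RPKM in siQk. The Isl1 groups did not overlap, as was so for 8.84% of genes tested (5.35% with siQk higher). The log2 fold change of Isl1 was 0.82 (SE 0.10), with an unadjusted p of 0.00101 and an adjusted p of 0.9996 by the edgeR quasi-likelihood test. Lmo3, a LIM-only cofactor, had a log2 fold change of 0.88 (SE 0.39), and Pbx3, a TALE homeodomain cofactor, 0.30 (SE 0.20). For Lmo3 the unadjusted p was 0.0329 and the adjusted p 0.9996 by the edgeR quasi-likelihood test. Tfap2b, a factor of neural crest cells, had 0 counts in all 6 libraries. Insm1, a zinc finger factor of neuroendocrine cells, was chosen after its values were seen. It was at 29.6, 18.9 and 7.39 RPKM in siNC and 21.1, 8.73 and 25.8 RPKM in siQk.

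The mesenchymal list holds regulators and markers, such as Vim and Fn1, of the other cell state of neuroblastoma. Of 30 listed, 17 had a mean of at least 1 RPKM, 18 were tested and 0 were called, with a median log2 fold change of -0.036. Vim, the intermediate filament vimentin, was at 405, 178 and 417 RPKM in siNC and 314, 602 and 264 RPKM in siQk. Tead1 and Id1 followed, with means of 16.8 and 14.9 RPKM. Twist1, Twist2, Meox2 and Tbx18, regulators of mesenchymal tissue, had 0 counts in all 6 libraries. Fosl2, an AP-1 subunit, had a log2 fold change of -0.53 (SE 0.18) and an unadjusted p of 0.0181 by the edgeR quasi-likelihood test. The next smallest were Fn1, fibronectin, at 0.39 (SE 0.17), and Wwtr1, the Hippo pathway co-activator TAZ, at -0.60 (SE 0.47).

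**Figure D5:**
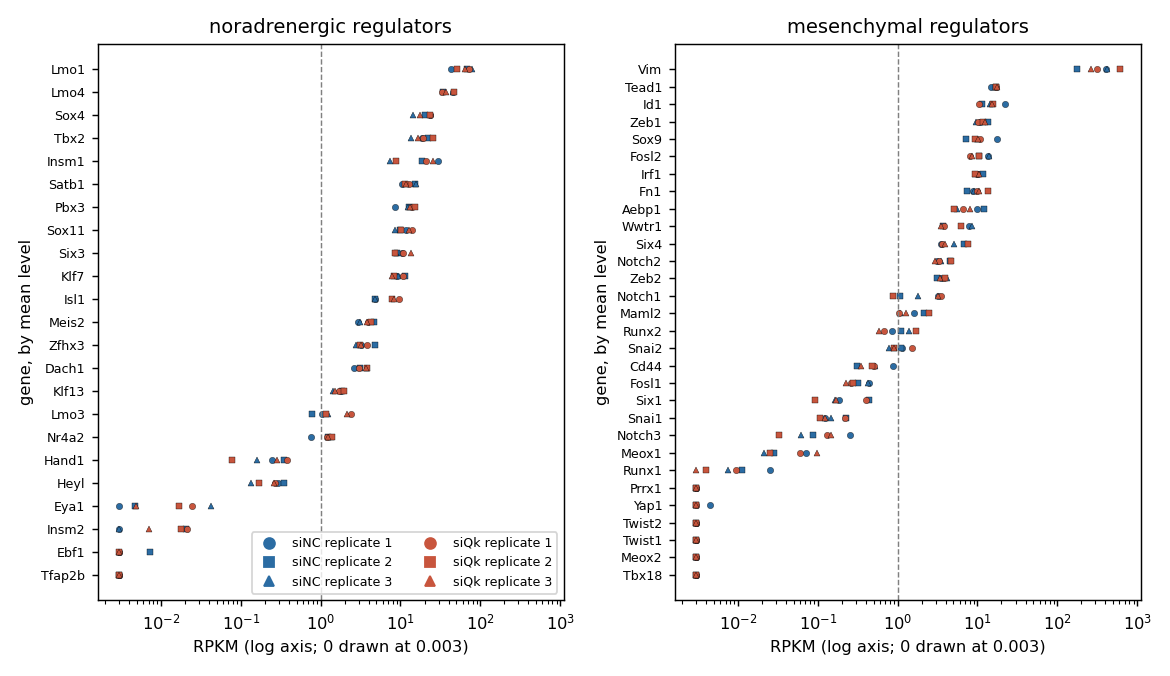
RPKM of 23 noradrenergic regulators (left) and 30 mesenchymal regulators and markers (right) in each library. The axis is a log axis with 0 drawn at 0.003 and a dashed line at 1 RPKM. On the left 17 genes and on the right 17 genes have a mean of at least 1 RPKM, and Vim is the highest gene of the right panel.

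Around Dbh, the genes of catecholamine synthesis, storage and removal were uneven. Of 19 listed, 14 had a mean of at least 1 RPKM, 15 were tested and 0 were called, with a median log2 fold change of -0.030. Chgb and Scg3, granins of dense-core vesicles, had means of 410 and 167 RPKM, and Gch1, which starts the synthesis of the hydroxylase cofactor, had a mean of 99.99 RPKM. Th, the rate-limiting enzyme, was chosen after its values were seen and was at 28.1, 38.3 and 5.43 RPKM in siNC and 13.6, 17.7 and 20.8 RPKM in siQk. The smallest p in the list belonged to Qdpr, which recycles that cofactor, with a log2 fold change of 0.37 (SE 0.15), then Maoa, a monoamine oxidase, at 0.39 (SE 0.17), and Scg2, another granin, at 0.41 (SE 0.26). Pnmt, which makes adrenaline, Slc6a3, the dopamine transporter, and Maob had 0 counts in all 6 libraries. Slc6a2, the noradrenaline transporter, had at most 0.00684 RPKM.

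Ret needs a GFRA co-receptor to bind its ligands. Of the 23 RET ligands, co-receptors and adaptors listed, 11 had a mean of at least 1 RPKM, 13 were tested and 0 were called, with a median log2 fold change of -0.093. Gfra1, the co-receptor for GDNF, was at 6.63 to 13.7 RPKM and Gfra2, that for neurturin, at 1.20 to 4.71 RPKM, while Gfra3 had at most 0.0106 RPKM. The ligand gene Gdnf had a mean of 0.0782 RPKM and Artn 0.233 RPKM, and Nrtn and the adaptor gene Dok6 had 0 counts in all 6 libraries. The adaptors Shc1 and Grb2 and the adhesion molecule Ncam1 led the list, with means of 45.4, 37.9 and 33.4 RPKM. Gfral, a co-receptor used in the brainstem, was at 1.20 ± 0.564 RPKM for siNC and 0.564 ± 0.179 RPKM for siQk (SD, n = 3 each; 40 to 165 counts per library), with a log2 fold change of -1.12 (SE 0.48). For Gfral the unadjusted p was 0.0273 and the adjusted p 0.9996 by the edgeR quasi-likelihood test. Grb10 and Ncam1 had the next smallest p in the list, with log2 fold changes of 0.64 (SE 0.20) and -0.37 (SE 0.21).

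Of 12 ALK relatives, ligands and adaptors, 8 had a mean of at least 1 RPKM, 8 were tested and 0 were called, with a median log2 fold change of -0.13. The ligand gene Fam150a had 0 counts in all 6 libraries and Fam150b had 0.417 to 0.729 RPKM. Irs2, an adaptor, Ptn, a secreted heparin-binding factor, and Ptpn11, a phosphatase, led the list, with means of 37.9, 31.4 and 30.1 RPKM. Ptn, Ptpn11 and Socs1 had the smallest p, with log2 fold changes of -0.36 (SE 0.42), -0.19 (SE 0.13) and 0.41 (SE 0.54). Ptprz1, a receptor for Ptn, had 0 counts.

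The MYC network was tested in full, with 19 of 19 genes kept, 0 called and a median log2 fold change of 0.069. Myc led, followed by the ubiquitin ligase Huwe1 and the kinase Aurka, which stabilises MYCN protein, with means of 76.9 and 68.7 RPKM. After Myc the smallest p belonged to the MAX-binding repressors Mxd4, at -0.30 (SE 0.26), and Mxd1, at 0.43 (SE 0.39). Of 21 genes listed for growth driven by MYC proteins, a list that also holds neighbours of MYCN, 20 were tested and 0 were called. Their median was 0.016. Npm1, Cdk4 and Ldha had means of 608, 514 and 350.5 RPKM, and Ddx1, the neighbour that is often amplified with MYCN, had the smallest p at a log2 fold change of 0.24 (SE 0.11). Mcm7 and Birc5 came next, at 0.21 (SE 0.10) and 0.17 (SE 0.10). Of 19 neuroblastoma risk and driver genes all 19 were tested and 0 were called, with a median of -0.0068, and Rrm2, Trp53 and Hras1 led at means of 93.4, 78.8 and 48.4 RPKM. In that list Nras, at -0.33 (SE 0.20), Arid1b, at -0.20 (SE 0.11), and Ptpn11 had the smallest p.

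Of 20 partners of the GATA and HAND factors, 16 were tested and 0 were called, with a median log2 fold change of -0.031. Chd4, a chromatin remodeller, Ldb1, a LIM-binding scaffold, and Mta1 led at means of 97.6, 49.1 and 48.1 RPKM. Id2, an inhibitor of bHLH factors, was at 3.89, 3.12 and 2.89 RPKM in siNC and 5.31, 10.6 and 5.29 RPKM in siQk. Its groups did not overlap, as was so for 8.84% of genes tested (5.35% with siQk higher). The log2 fold change of Id2 was 1.07 (SE 0.35), with an unadjusted p of 0.00776 and an adjusted p of 0.9996 by the edgeR quasi-likelihood test. Lmo2, a bridge between GATA and bHLH factors, was at 4.51 ± 0.577 RPKM for siNC and 2.81 ± 0.583 RPKM for siQk (SD, n = 3 each; log2 fold change -0.71, SE 0.21), and Mta1 had -0.31 (SE 0.21). For Lmo2 the unadjusted p was 0.0191 and the adjusted p 0.9996 by the edgeR quasi-likelihood test. Prox1 and Gata6 had 0 counts in all 6 libraries. Of 16 neurotrophin receptors and neuropeptides of sympathetic cells, 5 were tested and 0 were called, with a median of -0.23, which was 0.035 without siNC replicate 1 and -0.0066 without siQk replicate 2. Ngfr, the low-affinity neurotrophin receptor, was at 17.8 to 82.9 RPKM and Cartpt, a neuropeptide gene, at 17.6 to 25.6 RPKM, while Ntrk2, Ntf3, Sst, Tac1 and Adcyap1 had 0 counts. Ngfr had a log2 fold change of -0.35 (SE 0.66) and Ntrk3, another neurotrophin receptor, of -0.23 (SE 0.30).

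The name motor neuron-like was set against marker genes. Of 13 motor neuron markers, 8 had a mean of at least 1 RPKM, 9 were tested and 0 were called, with a median log2 fold change of 0.21, which was -0.064 without siNC replicate 3. Prph, Nefh and Nefl, which encode neuronal intermediate filaments, had means of 629, 61.9 and 60.4 RPKM, and sympathetic neurons express them as well. Isl1 had a mean of 6.69 RPKM, and Isl2, a related factor, Ache, which breaks down acetylcholine, and Slc18a3, its vesicular transporter, had means of 3.73, 4.68 and 1.97 RPKM. Other markers were close to 0, with means of 0.0395 RPKM for Mnx1, 0.0883 RPKM for Chat, which makes acetylcholine, and 0.00734 RPKM for Slc5a7, the choline transporter. Apart from the filaments, Isl1 and Lhx4, the markers named here were chosen after their values were seen. Lhx4, a LIM homeodomain factor of motor neuron progenitors, was at 0.411 ± 0.170 RPKM for siNC and 0.876 ± 0.281 RPKM for siQk (SD, n = 3 each; 23 to 112 counts per library; log2 fold change 1.07, SE 0.40), and Prph had a log2 fold change of -0.34 (SE 0.32). For Lhx4 the unadjusted p was 0.0256 and the adjusted p 0.9996 by the edgeR quasi-likelihood test. The labels name growth in serum and no differentiation step.

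Markers of other cell types were mostly low. The 10 Schwann cell and glial markers summed to 15.4 to 21.4 RPKM, of which Erbb3 and Pdgfra had means of 10.8 and 4.79 RPKM, while Sox10 had a mean of 0.00801 RPKM and Foxd3 had 0 counts. The log2 fold changes were -0.31 for Erbb3 (SE 0.12) and -0.14 for Mbp (SE 0.29), and 0 of 4 tested were called. The 7 fibroblast markers summed to 0.972 to 5.34 RPKM, mostly Pdgfrb, the only gene of that list tested. Its log2 fold change was -1.01 (SE 0.61), and it was -0.64 without siQk replicate 2 and -0.35 without siNC replicate 3 and siQk replicate 2. For Pdgfrb in all 6 libraries the unadjusted p was 0.0356 and the adjusted p 0.9996 by the edgeR quasi-likelihood test, and it was not called. Col1a1 and Dcn had means of 0.0626 and 0.0363 RPKM and Lum and Postn had 0 counts. The 10 blood cell markers summed to 1.46 to 4.46 RPKM, mostly Epor with a mean of 2.94 RPKM, and Cd3e and the beta-globin gene listed as Beta-s had 0 counts.

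The genes whose log2 CPM followed each of the 8 most closely over the 6 libraries are given as a description, since any 6 libraries yield many close patterns among 12665 genes. Pearson's r was above 0.9 with 477 genes for Phox2a, 431 for Mycn and 235 for Gata2, the 3 genes whose lowest library was siNC replicate 3. It was above 0.9 with 142 genes for Dbh, 107 for Ret, 63 for Alk, 43 for Gata3 and 23 for Hand2. The closest gene was Pth1r for Mycn, Ccdc162 for Phox2a, Eml3 for Gata2, Pik3ap1 for Dbh and Ctnnb1, the gene of beta-catenin, for Ret. For Hand2, Gata3 and Alk it was Blcap, Nav3 and Kdm6b. The next closest were Kank3 and Fbn1 for Mycn, Myo19 and Mprip for Phox2a, Hrasls and Sec22c for Hand2, Camsap3 and Galr2 for Gata2, and Gm20604 and Kctd7 for Gata3. For Alk, Ret and Dbh they were Zfp236 and Gm6277, Hnrnpm and Stard6, and Hint1 and Atxn7l2. For the 24 genes r ran from 0.964 to 0.998 over 6 libraries, and Spearman's rho from 0.886 to 1.0. With the 2 libraries farthest from the median of each gene left out, r ran from 0.843 to 0.998.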

How the data were processed

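The authors selected poly-A RNA (TruSeq kit version 2), sequenced pairs of 75-base reads, aligned them with OLego and counted genes with Quantas, for which versions are not given in the sources used here. They deposited, per gene and library, expected counts and RPKM values, where RPKM is the count divided by the length of the gene's exons and by the sum of counts. The files carry no coordinates. The labels list mm10, and the methods add the name of another build. Positions come from GENCODE M21 on GRCm38, matched on the Entrez identifier.

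Expected counts were rounded, TMM-scaled (factors 0.957 to 1.02) and tested with edgeR 4.0.16 (glmQLFit and glmQLFTest, R 4.3.3) where the mean log2 CPM was above 0. Calls needed a p under 0.01 and, after Benjamini-Hochberg adjustment, under 0.1. All 6 libraries entered 1 fit with no other term. Standard errors come from log2 CPM (prior count 2). Permutation tests of single values were two-sided and exact, over 20 arrangements. Sign flips planned for steps between neighbouring levels are not given, since the same libraries set the order. The 8 genes had at least 478 counts in every library, while some list genes tested had few (Lhx4 23 to 112, Socs1 27 to 120), and counting error adds to their spread. The p-values set the difference between groups against the spread between libraries. In siQk that spread may include differences between siRNAs, since the siRNA of each library is not given. Promoter windows came from RefSeq and matched 7 of the 8 genes, all but Ret. The scripts were tested on simulated data.

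The text names the 8 genes and Qk, and from each list the 3 highest, the 3 of smallest p, those called or without counts, and for each of the 8 genes the 3 of highest r. A few list genes that this rule would name are not reported here, and they stay in the counts. Lists were matched by symbol, and Hras1 and 2 blood markers by an older symbol. The 8 genes and the lists were chosen with earlier results of these data known. Alternatives were other scalings, filters and tests (DESeq2 1.42.0, the edgeR exact test), a replicate block and leaving out libraries, of which leaving out both siNC replicate 3 and siQk replicate 2 was added after the data were seen.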

Additional observations from a re-analysis of the deposited data

How the results depend on the processing

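No alternative called any of the 8 genes, and the lowest adjusted p for any of them was 0.792 (edgeR quasi-likelihood test without siNC replicate 3 and siQk replicate 2). The number of genes called was 5 under the edgeR exact test, 19 under DESeq2 and 0 to 1 when each library was left out, with 0 without siNC replicate 1, where Qk had a log2 fold change of -3.09 and an adjusted p of 0.125. DESeq2 called 1 list gene, Isl1. Leaving out each library in turn moved the log2 fold change of Qk from -3.19 to -2.67, of Gata3 from -0.040 to 0.16, of Ret from -0.17 to 0.20, of Phox2a from -0.32 to 0.25 and of Dbh from -0.16 to 0.64, so the last 4 changed sign. Mycn stayed between 0.085 and 0.47, Gata2 between -0.52 and -0.040, Hand2 between -0.40 and -0.14 and Alk between -0.28 and -0.10. Without siNC replicate 3 and siQk replicate 2 Phox2a was at -0.21 and Ret at 0.36. The step from Gata3 to Mycn ran from -0.063 to 0.14, and the change in the Gata2 share from -6.65 to 1.10 points. The causes were not tested.

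Deviations of same-numbered libraries correlated at 0.213, 0.018 and -0.170. Libraries of different numbers were not compared, so these values cannot decide whether replicate numbers pair the cultures. With a replicate block 1 gene was called, and the log2 fold changes were 0.33 for Mycn, 0.16 for Phox2a, 0.13 for Dbh and -0.19 for Gata2. The block changed no call.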
